A study of Homo sapiens with 6 samples.

Results

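The genes described here are 9 surface molecules best known from immune cells: SLAMF8 and SLAMF7 of the SLAM receptor family, CD40 and CD70 of the TNF receptor and ligand superfamilies, the B7 family ligands CD80, CD86 and ICOSLG, the adhesion ligand CD58 and the ectoenzyme CD38. They were taken by symbol from the 61541 genes listed in every count file, and all 9 were found. They were chosen by measured values, their levels in cytokine-treated against untreated cells, so those values are given below as a description, with no p-value for any of the 9. How many of them the fit over all genes called is stated once, beside the share of all genes, and nothing is read from it.

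RNA was measured in RCC4, an established human line of clear cell renal carcinoma, which the labels give as renal cell carcinoma epithelial cells. There were 3 untreated libraries, grown in medium with no cytokine, and 3 from cells exposed for 24 h to 2 cytokines, 1000 U/mL of interferon gamma (IFNγ) and 25 ng/mL of tumour necrosis factor (TNF). The labels name no vehicle for the untreated cells, and each biological replicate pooled 3 flasks. Native poly(A) RNA was read directly by nanopore sequencing, in which a read starts at the 3′ end of an RNA molecule. All cells are of a single line, and both cytokines were always given together, so the part of each cannot be told apart.

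T cells respond fully when recognition of antigen comes with a costimulatory signal. CD80 and CD86 give it through CD28, ICOSLG through ICOS and CD70 through CD27, while CD58 binds CD2 and strengthens the contact between cells. CD40 works in the other direction: it receives CD40 ligand from activated T cells and signals through TRAF adaptor proteins to the NF-kappaB factors. SLAM family receptors mostly bind one another across cells; SLAMF8 differs from most of them in a short cytoplasmic tail without the family's signalling motif, and is known from macrophages. CD38 consumes NAD on the cell surface. In antigen-presenting cells many of these genes respond to inflammatory cytokines, and CD70 is known for its abundance in clear cell renal carcinoma.

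The first 2 sequences are shown because both hold a match to the NF-kappaB consensus near a transcription start, while SLAMF8 was read in every treated library and CD86 in none. Both are RefSeq promoter windows of 300 bases on GRCh38.p14, from 250 bases before an annotated start to 50 bases after it, written 5′ to 3′ on the plus strand. SLAMF8 lies at chr1:159826623-159826922. CD86 has 2 windows in the table, and the one shown, at chr3:122077534-122077833, is that of the downstream start. Capitals mark matches to the motifs listed after the sequences.
SLAMF8: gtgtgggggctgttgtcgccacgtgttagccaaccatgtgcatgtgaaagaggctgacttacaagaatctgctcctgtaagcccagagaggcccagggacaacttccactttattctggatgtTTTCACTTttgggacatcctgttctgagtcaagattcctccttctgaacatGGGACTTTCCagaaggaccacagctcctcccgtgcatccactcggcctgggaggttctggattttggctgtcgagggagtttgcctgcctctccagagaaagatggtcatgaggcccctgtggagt
CD86: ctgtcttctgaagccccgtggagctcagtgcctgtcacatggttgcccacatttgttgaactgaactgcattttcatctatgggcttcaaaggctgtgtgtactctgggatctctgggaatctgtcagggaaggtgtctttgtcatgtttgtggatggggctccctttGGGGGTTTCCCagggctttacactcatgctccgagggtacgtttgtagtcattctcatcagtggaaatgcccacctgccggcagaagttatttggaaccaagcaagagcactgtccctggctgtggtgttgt

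Both strands were searched for the STAT motif GAS (TTCNNNGAA), a core of the interferon-stimulated response element (GAAANNGAA), the IRF core (AANNGAAA), with which the former shares letters, and the degenerate kappaB consensus bound by NF-kappaB. The set was settled with the SLAMF8 window in view. The SLAMF8 window held a kappaB match, GGGACTTTCC, starting 76 bases before the RefSeq start, and an IRF core on the minus strand 127 bases before it. The consensus occurs in 5.91% of the 35116 RefSeq promoter windows of this length and the IRF core in 22.8%. The exact letters GGGACTTTCC occur in 0.191%, but they were copied from the SLAMF8 window itself, so nothing is read from that share. The downstream CD86 window held 3 overlapping matches to the kappaB consensus, all in 1 stretch. They start 82 bases before the RefSeq start and, on both strands, 81 bases before it. The CD38 window held 2 IRF cores and 1 response element core, which 8.11% of all windows hold. GAS, in 7.66% of all windows, matched in none of the 7 windows found for 6 of the members. The windows of CD58, CD80 and ICOSLG and the upstream window of CD86 held no match. These matches describe letters only, and the CD86 and CD38 windows held theirs beside genes with no read in any library. CD40, CD70 and SLAMF7 had no sequence in the table.

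The third sequence is shown because it bears on how ICOSLG could be counted. It is the fifth exon of an ICOSLG transcript in GENCODE 29, 165 bases of coding sequence at chr21:44231280-44231444 on the minus strand of GRCh38. The same letters form the fifth exon of a transcript of another gene, ENSG00000277117, at chr21:5032053-5032217 on the plus strand. No letter is in capitals, since none differs.
ICOSLG: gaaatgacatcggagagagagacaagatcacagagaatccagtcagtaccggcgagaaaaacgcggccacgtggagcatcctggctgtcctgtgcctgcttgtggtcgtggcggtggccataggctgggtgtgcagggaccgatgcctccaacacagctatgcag

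Library totals ran from 3626000 to 4406296 counts, and levels are given as CPM, the count divided by the library total after TMM scaling for composition and multiplied by 1000000. Where no read was counted, up to 3 counts were allowed for, which came to between 0.674 and 0.863 CPM in the 6 libraries and covers counting error only. Of the 10067 genes that passed the filter on low counts, 562 (5.58%) rose and 257 (2.55%) fell with treatment by the quasi-likelihood test of edgeR, at a Benjamini-Hochberg adjusted p below 0.05. With libraries scaled to their totals alone, the split was 485 higher and 364 lower. In place of 819 genes in both directions, 465 were called without untreated replicate 2 and 455 without treated replicate 3. The labels' treatment showed in the direct targets IRF1, from 33.8 ± 5.93 to 1325 ± 155.9 CPM, and ICAM1, from 27.7 ± 9.04 to 1200 ± 164.8 CPM (SD, n = 3 each). All 10 renal carcinoma markers on the list had reads, among them PAX8 and CA9. Of 14 leukocyte markers, 8 were at 0 in all 6 libraries, including the pan-leukocyte gene PTPRC and the T and B cell genes CD3D, CD3E and MS4A1. LCP1, which carcinoma lines can also express, was the exception: the untreated mean was 339.4 ± 46.7 CPM and the treated mean 293.5 ± 70.0 CPM (SD, n = 3 each). The other 13 markers together had between 0 and 1.04 CPM in untreated and between 0.674 and 2.84 CPM in treated libraries, with no count above 6. Of 5 endothelial markers, 4 were at 0 throughout.

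Of the 9 genes, 5 had reads and passed the filter, and 4 had no read in any of the 6 libraries. Among those 5, 3 had every treated library above every untreated one, an arrangement found in 13.9% of all genes tested, 2 had overlapping groups, and 0 had every treated library lower, as 11.9% of all genes tested did. The edgeR threshold was passed by 2 of the 5, against 8.14% of all genes tested: 2 upward, SLAMF8 and CD40 (5.58% of all genes), and 0 downward (2.55%). SLAMF8, unread in untreated cells, passed the filter through its treated libraries alone and could not have been lower. The 9 genes were chosen by these same values, so nothing is read from these counts. Values are averages over a culture, so more cells with a transcript and more transcript per cell cannot be told apart.

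SLAMF8 (ENSG00000158714; chromosome 1, 159826811 to 159837492, on GRCh38 as all gene coordinates here) was the member that went from silent to abundant. Its counts were 0, 0 and 0 in untreated libraries and 540, 530 and 531 in treated replicates 1, 2 and 3. As levels, the treated libraries had 155.4, 119.0 and 150.8 CPM, so replicate 2 was the lowest and no treated library came near the untreated limit. The treated mean of 141.7 ± 19.8 CPM (SD, n = 3) was 181.2 times the limit of 3 counts, taken in the untreated library where that limit was highest (0.782 CPM). This ratio is a lower bound on the fold over untreated cells. SLAMF8 was 1 of 35 genes with 0 counts in every untreated library and 10 or more in every treated one, and the sixth of these by treated CPM. The final 1000 exonic bases of SLAMF8 lie wholly opposite exons of SNHG28 and ENSG00000256029 on the other strand. Counting was strand-specific, and both of those genes had 0 counts in all libraries.

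SLAMF7 (ENSG00000026751; chromosome 1, 160739057 to 160754821), a receptor of natural killer and plasma cells, stayed near the limit of detection. The untreated libraries held 9, 13 and 16 reads of it and the treated ones 5, 6 and 10. In CPM these were 2.35, 3.35 and 3.62 against 1.44, 1.35 and 2.84, and the groups overlapped through treated replicate 3. The log2 fold change was -0.74 (SE 0.45), within the spread between libraries.

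The rest of the SLAM family gave almost no reads, with or without cytokines. SLAMF1, CD48, LY9, CD244, CD84, SLAMF6 and SLAMF9 and the adaptor genes SH2D1A and SH2D1B, whose products dock on SLAM receptors, had 0 counts in all 6 libraries. FYN, a kinase recruited by these adaptors, was read 8, 9 and 7 times in untreated libraries and 0, 9 and 1 times in treated ones, and did not pass the filter. None of the 10 listed genes could therefore be tested in the main fit. In 13 other settings, in which edgeR, DESeq2 or limma voom was used, at most 1 of them, FYN, was tested, and it was not called. The other 9 had 0 counts and could not be called in any setting, so the settings say nothing about them.

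CD40 (ENSG00000101017; chromosome 20, 46118278 to 46129863) was read in every library. Untreated replicates 1, 2 and 3 had 77.4, 88.5 and 72.8 CPM, and treated replicates had 325.4, 256.9 and 338.2 CPM. The lowest treated library lay far above the highest untreated one, and treated replicate 2 was again the lowest of its group. The group means were 79.6 ± 8.08 and 306.8 ± 43.7 CPM (SD, n = 3 each), and their ratio was 3.86. The fitted log2 fold change was 1.95 (SE 0.19).

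CD70 (ENSG00000125726; chromosome 19, 6583183 to 6604103) was the most abundant of the 9 in both groups. Its levels were 475.8, 485.4 and 319.5 CPM in untreated and 718.7, 614.2 and 734.1 CPM in treated libraries. The groups did not overlap, and untreated replicate 3 stood below the other 2 untreated libraries. The means of 426.9 ± 93.1 and 689.0 ± 65.2 CPM (SD, n = 3 each) gave a log2 fold change of 0.69 (SE 0.20), which became 0.51 without untreated replicate 3.

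CD58 (ENSG00000116815; chromosome 1, 116514534 to 116571039) was low and did not separate the groups. Its levels were 5.48, 7.46 and 9.95 CPM in untreated and 5.47, 11.7 and 7.38 CPM in treated libraries. Treated replicate 2, the lowest treated library for SLAMF8, CD40 and CD70, was the highest for CD58. The log2 fold change of 0.10 (SE 0.38) took the opposite sign when scaled to library totals alone, without untreated replicate 1 or without treated replicate 2.

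**Figure D1:**
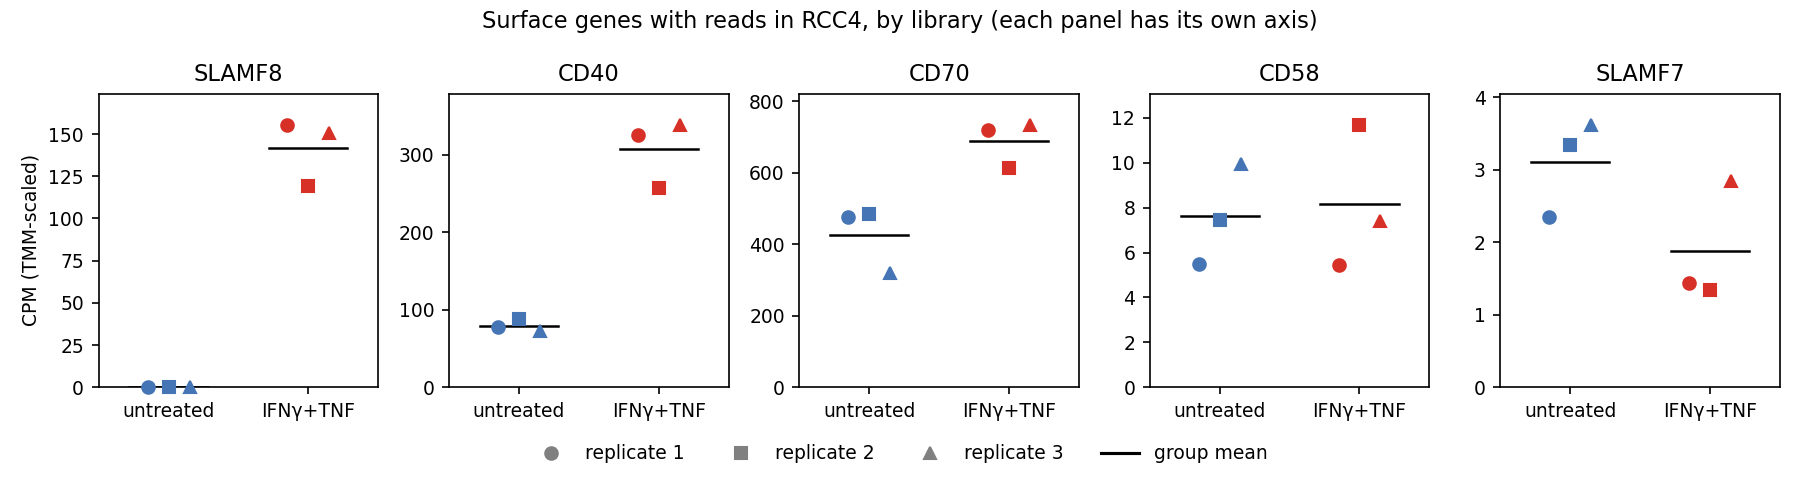
Level in CPM (vertical axes, linear from 0 and separate for each gene) of the 5 genes with reads, in 3 untreated (blue) and 3 cytokine-treated (red) libraries of RCC4; marker shapes give the replicate and lines the group means. SLAMF8 goes from 0 to between 119.0 and 155.4 CPM, CD40 and CD70 separate the groups, and CD58 and SLAMF7 overlap.

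Per kilobase of exonic length, the order of levels in untreated cells was CD70 (279.0 CPM per kb), CD40 (31.6), CD58 (4.28) and SLAMF7 (0.642). In treated cells it was CD70 (450.3 CPM per kb), CD40 (121.7), SLAMF8 (44.6), CD58 (4.58) and SLAMF7 (0.388). No 2 neighbours in either order overlapped across their 3 libraries. SLAMF8 thus entered the order between CD40 and CD58. A direct RNA read stands for a molecule whatever its length, so the division by length lowers long genes such as SLAMF7.

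CD38, CD80 and CD86 had 0 counts in all 6 libraries, which allows up to 0.863 CPM each. CD38 (ENSG00000004468; chromosome 4, 15778275 to 15853232), CD80 (ENSG00000121594; chromosome 3, 119524293 to 119559614) and CD86 (ENSG00000114013; chromosome 3, 122055362 to 122121139) share no exonic base with another gene on their strand, so no read of theirs was left out for touching 2 genes on that strand. On the other strand, TIMMDC1 covers 79.8% of the final 1000 exonic bases of CD80, and its own 2021 reads were counted to it.

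ICOSLG (ENSG00000160223; chromosome 21, 44217014 to 44240966) also had 0 counts in all libraries, but its reads could be assigned elsewhere. ENSG00000277117 (chromosome 21, 5022493 to 5040666), looked at after its values were seen and to which the name table gives no symbol, has the same coding sequence. In GENCODE 29, a coding sequence of 930 bases and another of 909 bases were each identical, with 0 differing bases, between a transcript of ICOSLG and a transcript of ENSG00000277117. The 4 exons from the second to the fifth, of 41, 351, 291 and 165 bases, matched base for base. They are also exon blocks of both genes in the deposited files. A read confined to them fits both places equally. Reads here start at the 3′ end of a molecule, however, and the 3′ untranslated bases of the 2 genes are not compared here. All 334 reads were counted at ENSG00000277117 and 0 at ICOSLG, and which of the 2 genes gave them was not tested.

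At ENSG00000277117, untreated replicates 1, 2 and 3 held 22, 24 and 28 reads and the treated ones 72, 87 and 101. In CPM these were 5.74, 6.18 and 6.33 against 20.7, 19.5 and 28.7, so the groups did not overlap. The means were 6.08 ± 0.309 and 23.0 ± 4.97 CPM (SD, n = 3 each), and the fitted log2 fold change was 1.91 (SE 0.26). The count of 0 at ICOSLG therefore sets no limit on transcripts with this coding sequence.

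**Figure D2:**
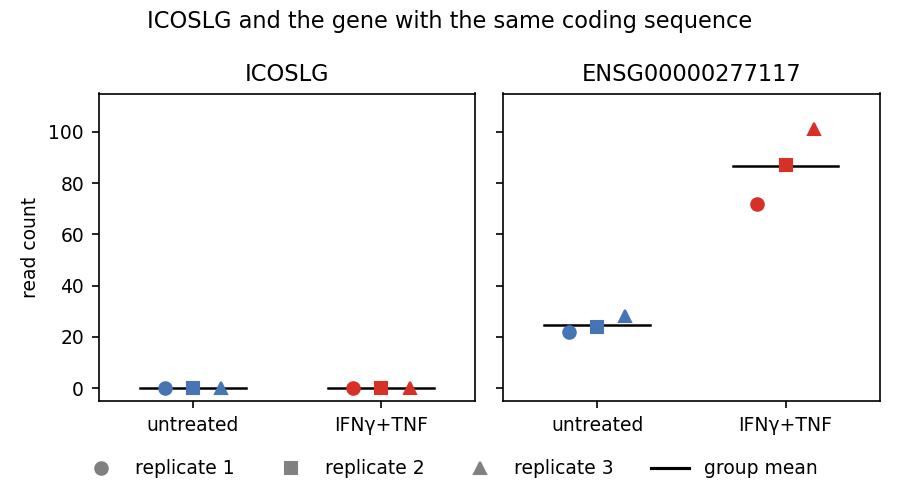
Read counts (vertical axis, linear) of ICOSLG and of ENSG00000277117, which has the same coding sequence, in 3 untreated (blue) and 3 cytokine-treated (red) libraries; marker shapes give the replicate and lines the group means. All reads are at ENSG00000277117, from 22 to 28 in untreated and from 72 to 101 in treated libraries, and none at ICOSLG.

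Genes downstream of CD40 were examined next, since CD40 itself was well read. The list held 16 genes, chosen with earlier results of these data known, and CD40 shares them with the TNF receptors, so their change cannot be assigned to CD40. Of these, 15 were tested, 6 rose, 0 fell and 9 did not pass the threshold in edgeR's quasi-likelihood test. Over all genes tested, 5.58% rose and 2.55% fell. The median log2 fold change was 0.75 on the list against -0.03 over all genes tested. TRAF1, an adaptor that is itself NF-kappaB responsive, had 16.4, 22.9 and 6.33 CPM in untreated and 318.5, 234.0 and 266.4 CPM in treated libraries. Its log2 fold change was 4.17 (SE 0.40, edgeR adjusted p 0.000265). TNFAIP3, which encodes the NF-kappaB inhibitor A20, had 7.30, 12.1 and 8.82 CPM in untreated and 123.7, 134.5 and 207.0 CPM in treated libraries. Its edgeR adjusted p was 4.389e-05 and its log2 fold change 4.04 (SE 0.30).

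The factors that CD40 signalling ends in were among the rising genes. RELA, the main activating NF-kappaB subunit, had 117.8, 109.9 and 74.8 CPM in untreated libraries and 340.9, 239.9 and 358.7 CPM in treated ones. By edgeR its adjusted p was 0.00301 and its log2 fold change 1.63 (SE 0.24). NFKB2, the precursor of the non-canonical p52 subunit, reached 1.57 on the log2 scale (SE 0.23) at an edgeR adjusted p of 0.00296. Its partner RELB had 53.4, 61.8 and 21.3 CPM in untreated and 125.4, 103.8 and 121.5 CPM in treated libraries. By edgeR the RELB log2 fold change was 1.36 (SE 0.34) at an adjusted p of 0.0429, and this adjusted p was 0.0543 without untreated replicate 2 and 0.116, 0.0973 and 0.143 without treated replicates 1, 2 and 3. BIRC3, an inhibitor of apoptosis that binds TRAF proteins, showed a log2 difference of 2.90 (SE 0.63) at an edgeR adjusted p of 0.0215, on treated levels of 5.75, 27.2 and 11.6 CPM. Its adjusted p was 0.0708 without treated replicate 2, 0.0555 without treated replicate 3 and 0.0643 in limma voom.

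The other TRAF adaptors, the kinases and NFKB1, the precursor of the p50 subunit, did not pass the threshold. NFKB1 had non-overlapping groups and a log2 fold change of 0.64 (SE 0.18), at an edgeR adjusted p of 0.0683. For TRAF2, also without overlap, these were 0.75 (SE 0.29) and 0.179. TRAF3 had 19.8 ± 0.950 and 22.1 ± 1.75 CPM, and BIRC2 35.6 ± 9.33 and 48.5 ± 25.9 CPM, in untreated and treated cells (SD, n = 3 each). MAP3K14, the kinase of the non-canonical branch, had a log2 fold change of -0.24 (SE 0.27). TRAF5 had 2 reads in all.

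**Figure D3:**
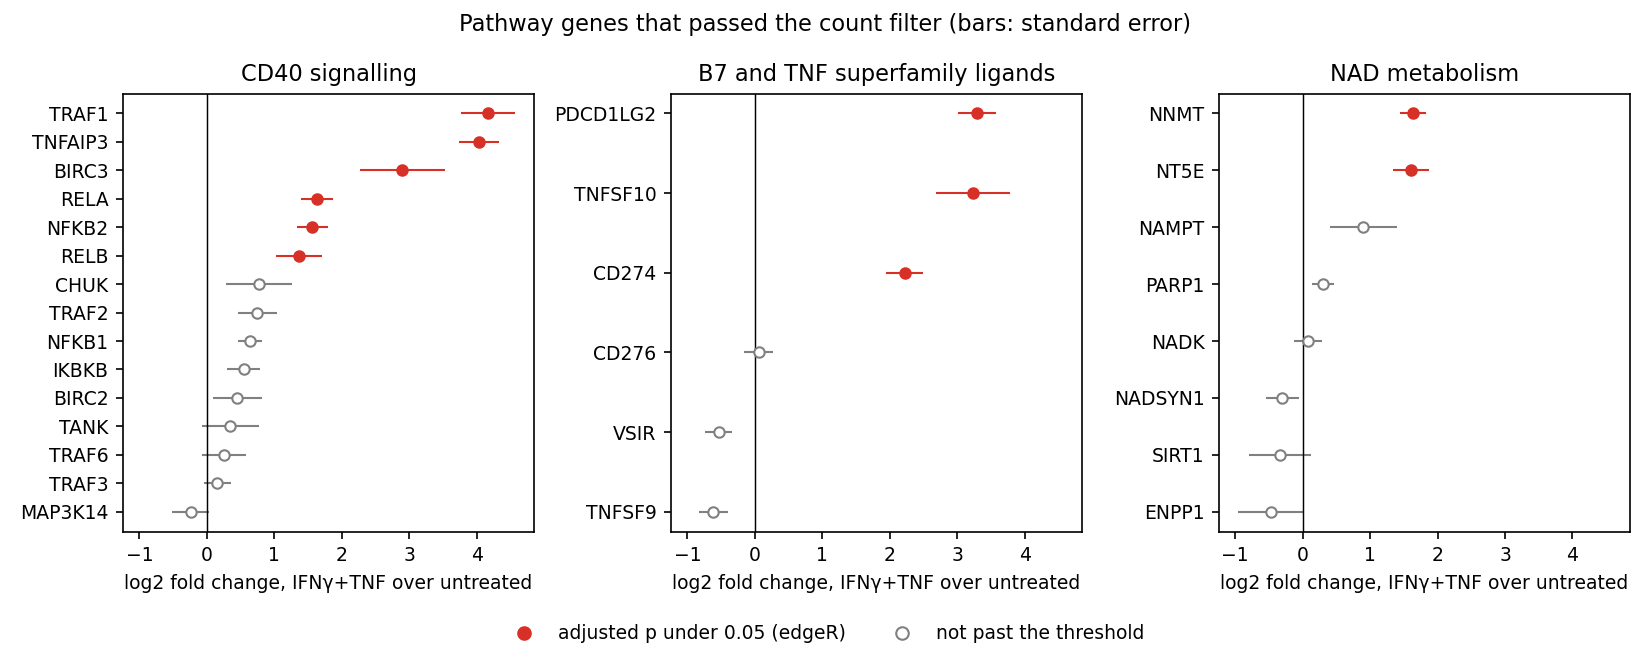
Log2 fold change of treated over untreated cells (horizontal axes, points with standard error bars) for the tested genes of the CD40 signalling, B7 and TNF superfamily ligand, and NAD metabolism lists; filled red points passed the edgeR threshold. TRAF1 and TNFAIP3 lie farthest right of all points, at 4.17 and 4.04, and among the ligands TNFSF9 and VSIR lie below 0 without passing.

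Other ligands of the B7 and TNF superfamilies formed a list of 16 genes, also chosen with earlier results of these data known. Of these, 6 were tested, and 3 rose, 0 fell and 3 did not pass the threshold (edgeR), where 5.58% of all genes tested rose and 2.55% fell. The median log2 fold change was 1.14 on the list against -0.03 over all genes tested, but no tested gene of the list lay near 1.14. The 3 that rose had 2.22 or more, and the 3 others 0.06 or less. The rising genes were the PD-1 ligands CD274 and PDCD1LG2, with log2 fold changes of 2.22 and 3.29, and TNFSF10, which encodes the death receptor ligand TRAIL. TNFSF10 had 4.43, 11.1 and 24.4 CPM in untreated and 69.9, 159.9 and 151.4 CPM in treated libraries. The edgeR adjusted p was 0.00612 and the log2 fold change 3.24 (SE 0.54). The untreated libraries differed widely among themselves in this gene, yet all lay below the treated ones.

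TNFSF9, which encodes the costimulatory 4-1BB ligand, ran the other way. It had 153.0, 179.9 and 119.2 CPM in untreated and 100.7, 82.7 and 112.7 CPM in treated libraries, without overlap, and its log2 fold change of -0.61 (SE 0.21) gave an edgeR adjusted p of 0.133. Without untreated replicate 3 the adjusted p was 0.0254, and scaled to library totals alone it was 0.0469. CD276 (B7-H3) averaged 76.8 ± 12.5 CPM without cytokines and 80.1 ± 14.5 CPM with them (SD, n = 3 each). VSIR, the inhibitory ligand VISTA, had 26.5 ± 1.19 and 18.3 ± 1.70 CPM (log2 fold change -0.54, SE 0.20, edgeR adjusted p 0.177). TNFSF13B, the B cell factor BAFF, was unread in untreated cells, had 4, 25 and 29 counts in treated replicates 1, 2 and 3 and did not pass the main filter. Its adjusted p was 6.18e-05 in DESeq2 and 0.0121 in edgeR with the filter at a mean CPM of at least 1. By edgeR it was 0.0140 without untreated replicate 1 and 0.00676 without treated replicate 1. TNFSF13B was not called in the settings that this paragraph leaves unnamed. The count of calls on this list was 5 without untreated replicate 3, where TNFSF13B and TNFSF9 joined it. It was also 5 with every gene that had a read tested, where TNFSF13B and TNFSF15 did.

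A list of 9 T and natural killer cell genes, binding partners of members or of TNF superfamily ligands, was nearly silent. Receptors of the rising ligands CD274, PDCD1LG2 and TNFSF10 were not on it. CD28, CTLA4, ICOS, CD27, CD2, CD40LG and TNFRSF18 had 0 counts in all 6 libraries, and TNFRSF4 had 2. TNFRSF9, the receptor 4-1BB, was the exception: its levels were 1.83, 3.86 and 2.49 CPM in untreated and 12.1, 9.88 and 5.96 CPM in treated libraries. The groups did not overlap, and its log2 fold change was 1.76 (SE 0.42, edgeR adjusted p 0.0327). The adjusted p was 0.0746 and 0.0562 without untreated replicates 1 and 2, and 0.115 and 0.0994 without treated replicates 1 and 2.

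Around the silent CD38, 14 genes of NAD metabolism were listed, also with earlier results of these data known. Of these, 8 were tested, and 2 rose, 0 fell and 6 did not pass the threshold (edgeR). Over all genes tested, 5.58% rose and 2.55% fell, and the median log2 fold change was 0.19 on the list against -0.03 over all genes. NNMT, which methylates nicotinamide, had an untreated mean of 994.2 ± 64.7 CPM and a treated mean of 3103 ± 721.2 CPM (SD, n = 3 each). Its edgeR adjusted p was 0.000855, for a log2 fold change of 1.64 (SE 0.19). NT5E, the surface nucleotidase CD73, had 16.9, 10.3 and 11.5 CPM in untreated and 31.4, 39.5 and 47.4 CPM in treated libraries. Its edgeR adjusted p was 0.00609, for a log2 fold change of 1.61 (SE 0.27). BST1, the paralog of CD38, had 1 read in all. NAMPT, the main enzyme of NAD salvage, had 22.4 ± 12.9 and 41.8 ± 21.6 CPM (SD, n = 3 each), with overlapping groups and an edgeR adjusted p of 0.381. With every gene that had a read tested, its adjusted p was 0.0139 (edgeR). PARP1, NADSYN1 and NADK had log2 fold changes of 0.30, -0.30 and 0.08, none past the threshold.

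The genes beside the members on their chromosomes were compared next, by taking the nearest tested gene on each side. Of these 18 genes, 1 rose, 0 fell and 17 did not pass the edgeR threshold, a share of rising genes near that over all genes tested (5.58%). Their median log2 fold change was 0.12 against -0.03 over all genes. TNFSF9 was a further call without untreated replicate 3, which made 2. Beside SLAMF8, DUSP23 lies 44.3 kb away with 188.4 ± 38.0 and 151.8 ± 18.4 CPM, and TAGLN2 80.6 kb away with 2451 ± 776.9 and 2617 ± 418.2 CPM, in untreated and treated cells (SD, n = 3 each). Beside CD40, NCOA5 at 28.3 kb and SLC35C2 at 216.1 kb had log2 fold changes of 0.13 and 0.25. Neither pair separated the groups, in contrast to the member between them.

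The neighbour that rose was C3, the central complement component, 73.6 kb from CD70 on chromosome 19. It had 9.12, 16.7 and 62.6 CPM in untreated and 360.2, 357.8 and 464.0 CPM in treated libraries. Its log2 fold change was 3.72 (SE 0.60), at an edgeR adjusted p of 0.00507. Untreated replicate 3 was the highest of its group for C3 and the lowest for CD70. TNFSF9 lies 47.3 kb from CD70 on its other side, and TNFSF14, between CD70 and C3, had 1 read in all. The 3 TNF superfamily ligand genes of this stretch thus had a log2 fold change of 0.69 (CD70), a log2 fold change of -0.61 (TNFSF9) and next to no reads (TNFSF14).

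**Figure D4:**
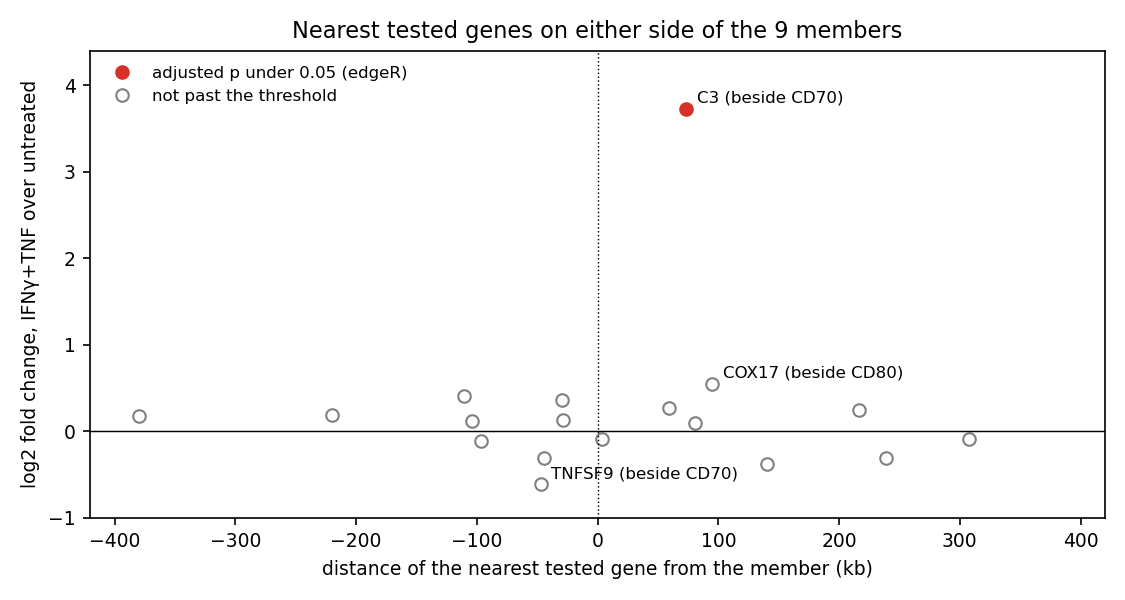
Log2 fold change of treated over untreated cells (vertical axis) for the nearest tested gene on each side of the 9 surface genes, against its distance in kb (horizontal axis, negative towards lower coordinates); red marks the edgeR threshold passed. Only C3, beside CD70, is past it, at 3.72, and the other 17 lie between -0.61 and 0.55.

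Finally, the tested genes most like SLAMF8 and CD40 across the 6 libraries were found by the root mean square difference in log2(CPM + 1) after removing each gene's own mean. This measure is dominated by the difference between the groups and is a description. Nearest to SLAMF8 were APOL4 (difference 0.23), ENSG00000226025 (0.23), GBP4 (0.24), BATF2 (0.26) and APOL3 (0.33). All 5 had at most 0.260 CPM on average in untreated cells, and between 121.2 and 201.3 CPM in treated cells. Nearest to CD40 were BBC3 (0.10), which encodes the apoptosis regulator PUMA, LINC00623 (0.14), the cytokine receptor gene IL12RB1 (0.14), SEMA3F (0.14) and SLC25A28 (0.16). BBC3 went from 38.3 ± 3.78 to 134.4 ± 23.3 CPM (SD, n = 3 each). IL12RB1, at 0 in untreated and 3.18 ± 0.693 CPM in treated cells, came near only through the added 1: with 0.1 added in its place it left the list, as did BATF2 and APOL3 from that of SLAMF8.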

How the data were processed

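The authors deposited whole-number counts for each gene. Per the file headers, featureCounts 2.0.1 ran strand-specifically, in long-read mode, on exons of Ensembl release 105 (GRCh38). Multi-mapping and multi-overlap counting were not set there. The submitters' processing notes name minimap2 2.24, SAMtools 1.16 and featureCounts 2.0.0. Alignment names in the headers carry the word dmso; groups came from the sample titles. A read quality above 7 was required, per the series design text.

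Symbols matched 61369 of 61541 identifiers. All genes were fitted with edgeR 4.0.16 (R 4.3.3): quasi-likelihood F test, TMM, filterByExpr, Benjamini-Hochberg adjustment, threshold 0.05, group as the sole term. Standard errors are the absolute log2 fold change over the square root of F. The fits were tested on simulated data. DESeq2 1.42.0 and limma 3.58.1 were alternatives. Promoters are RefSeq's; transcripts are GENCODE 29's.

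The members and gene lists were chosen with earlier results of these data known. Named genes are the members, list genes past the threshold with up to 4 others per list by mean CPM, nearest tested neighbours and nearest profiles; others are listed markers. Outside this rule, and with their values seen, the text also names listed genes at or near 0 (TRAF5, BST1, TNFSF14, TNFSF15 and those of the SLAM list), MAP3K14, ENSG00000277117 and genes on the opposite strand. Between replicates of a group, chi-square over its degrees of freedom ran from 3.48 to 24.7, so none was a repeat of another.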

Additional observations from a re-analysis of the deposited data

How the results depend on the processing

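Results were recomputed in 13 other settings, and the SLAMF8 bound in the 8 that bear on it. All genes called numbered 819, with 1328 when no read filter beyond 1 count was set, 1513 with the replicate block, and from 455 (without treated replicate 3) to 1178 (without untreated replicate 3) with 1 library left out. Scaling to library totals changed the split from 562 higher and 257 lower to 485 and 364, with a median log2 fold change of -0.13 over all genes. Same-numbered libraries did not all deviate together (r = 0.651, -0.0037 and 0.374), so the numbers were not taken as pairs. For treated replicates 1 and 3 the same-numbered untreated library was still the closest. For treated replicate 2 the closest was untreated replicate 3 (r = 0.413). The block added NFKB1 and TRAF2 to CD40 signalling (8 called), NAMPT to NAD metabolism (3), and TNFSF9 to the ligands (4) and the neighbours (2). Calls among B7 and TNF superfamily ligands numbered 5 with every gene that had a read tested, and from 3 to 5 with 1 library left out; calls among neighbours numbered 2 with library totals alone, and from 1 to 2 with 1 library left out. CD58 changed sign with library totals alone (-0.002) and ranged from -0.20 to 0.34 with 1 library left out, taking -0.06 without untreated replicate 1. Direction held in all 13 settings for CD40 (1.84 to 2.11), CD70 (0.51 to 0.81) and SLAMF7 (-1.14 to -0.48), and over its 8 settings the bound for SLAMF8 ran from 172.5-fold to 195.7-fold. The causes of these moves were not tested. Genes with few reads, such as SLAMF7, are limited by depth.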
